A study of Mus musculus with 16 samples.

Results

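The aminoacyl-tRNA synthetases are the enzymes that join each amino acid to its transfer RNA, and 36 RNAs that encode them were followed here among the 12900 RNAs of the deposited table. They were listed by gene symbol, with earlier results of these data known, and every listed symbol was found. Of the 36, 20 encode enzymes of the cytosol and 16, the symbols that end in the digit 2, encode enzymes of the mitochondrion. The cells were NIH/3T3, an established mouse fibroblast line that was not authenticated, made into stable lines by lentiviral transduction. One line carried a doxycycline-inducible RNA of the human β-globin coding sequence with the β-globin 3′UTR (HBB, the control), and the other carried the same coding sequence with the 3′UTR of Pkp4 (Pkp4 cUTR), an RNA that is targeted to protrusions. All cells, controls included, received 1 μg/ml doxycycline for 3 days, were starved of serum, were plated for 2 h on porous filters (3.0 μm), extended protrusions towards lysophosphatidic acid (LPA) for 1 h and were then lightly fixed (paraformaldehyde at 0.3%, 10 min). Protrusions (Ps) were scraped from one side of the filter and cell bodies (CB) from the other, with 4 samples for each fraction of each line, 16 in all. Each sample pools very many cells, so a lower value in protrusions cannot be told apart between fewer protrusions with the RNA and less RNA in each.

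A synthetase recognises one amino acid and the transfer RNAs that carry it, spends ATP to activate the amino acid, and hands the charged transfer RNA to an elongation factor that brings it to the ribosome. Mitochondria make their own proteins and use a separate set of enzymes, encoded in the nucleus and imported, although lysyl- and glycyl-tRNA synthetase are each made from a single gene for both compartments. In animal cells several cytosolic synthetases are held in a large multisynthetase complex around 3 scaffold proteins, and the amino acid response, driven by the transcription factor Atf4, is known to raise the RNAs of many cytosolic synthetases.

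The samples held 18660287 to 31260831 reads on the listed RNAs, and a floor of 3 reads corresponded to 0.089 to 0.176 CPM (reads scaled to the library size), a limit that covers counting error only. The members were well above it, since the lowest value was 72 reads, for Mars2, and the highest 18074 reads, for Lars2. As markers of the fractions, 5 RNAs known from protrusions (Rab13, Net1, Kank2, Cyb5r3 and Ddr2) summed to 3590 to 6070 CPM in HBB protrusions against 594 to 684 in HBB cell bodies, and 3 RNAs retained in nuclei summed to 160 to 315 against 580 to 723. In the Pkp4 cUTR line the same sums were 3330 to 4730 against 546 to 668, and 186 to 275 against 476 to 538. The most abundant RNA was Cyb5r3 in the first sum and Neat1 in the second. The nuclear RNA Kcnq1ot1 did not differ by limma in HBB cells (adjusted p = 0.161) or Pkp4 cUTR cells (adjusted p = 0.567). Pkp4, a further RNA of protrusions, was left out of these sums because reads of the construct's Pkp4 3′UTR cannot be told apart from it. Its log2(FC) of Ps over CB was 1.54 in HBB cells and 0.42 (adjusted p = 0.0735) in Pkp4 cUTR cells. Fibroblast markers, 9 of 10 in the table, summed to 20000 to 21300 CPM in HBB Ps, 27900 to 32600 in HBB CB, 22000 to 23300 in Pkp4 cUTR Ps and 27300 to 33300 in Pkp4 cUTR CB. Of these 9, Vim and S100a4 were higher in protrusions of both lines and the other 7 lower (limma, adjusted p under 0.05). The shares over all RNAs were 28.3% and 28.9% in HBB cells and 28.2% and 28.5% in Pkp4 cUTR cells. Of 5 immune, 4 epithelial and 3 endothelial markers, 1, 2 and 2 were in the table. They summed to 2.85 to 4.71, 10.7 to 14.7 and 0.635 to 0.924 CPM in HBB Ps and to 5.67 to 6.64, 11.8 to 14.8 and 1.45 to 1.91 in HBB CB, and in the Pkp4 cUTR line to 3.96 to 4.69, 14.7 to 19.6 and 0.505 to 1.13 in Ps and 4.67 to 6.69, 16 to 20.4 and 0.88 to 1.17 in CB. Their part in the results below was not tested.

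The synthetase RNAs did not move as one group between protrusions and cell bodies. In the HBB line 8 of the 20 cytosolic members were higher in protrusions, 4 were lower and 8 did not pass the test, whereas of the 16 mitochondrial members 1 was higher, 7 were lower and 8 did not pass (limma, adjusted p under 0.05). Over all 12900 RNAs 28.3% were higher and 28.9% lower by the same rule. On the log2 scale the cytosolic members had a median Ps/CB change of 0.13 (range −0.37 to 0.74) and the mitochondrial ones one of −0.15 (−0.60 to 0.36), beside 0.006 for all RNAs with quartiles of −0.37 and 0.41. Most members lay within the central part of the distribution of all RNAs.

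In the Pkp4 cUTR line, whose samples are separate from those of the HBB line, 9 cytosolic members were higher and 4 lower, and 2 mitochondrial members were higher and 6 lower. Over all RNAs 28.2% were higher and 28.5% lower there. The medians were 0.15 for the cytosolic members (−0.33 to 0.99) and −0.24 for the mitochondrial ones (−0.55 to 0.44), beside 0.011 for all RNAs. In both lines the same call was made for 19 members, which is 95% of the 20 called in HBB cells and 90.5% of the 21 called in Pkp4 cUTR cells, and none was called in opposite directions. For all RNAs those shares were 86.2% and 87.1%. By the study's own call of enrichment, more than 2-fold at p under 0.05 without adjustment, 0 members were enriched or depleted in either line, where 4.54% of all RNAs were enriched and 4.0% depleted in HBB cells and 5.07% and 2.92% in Pkp4 cUTR cells.

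**Figure D1:**
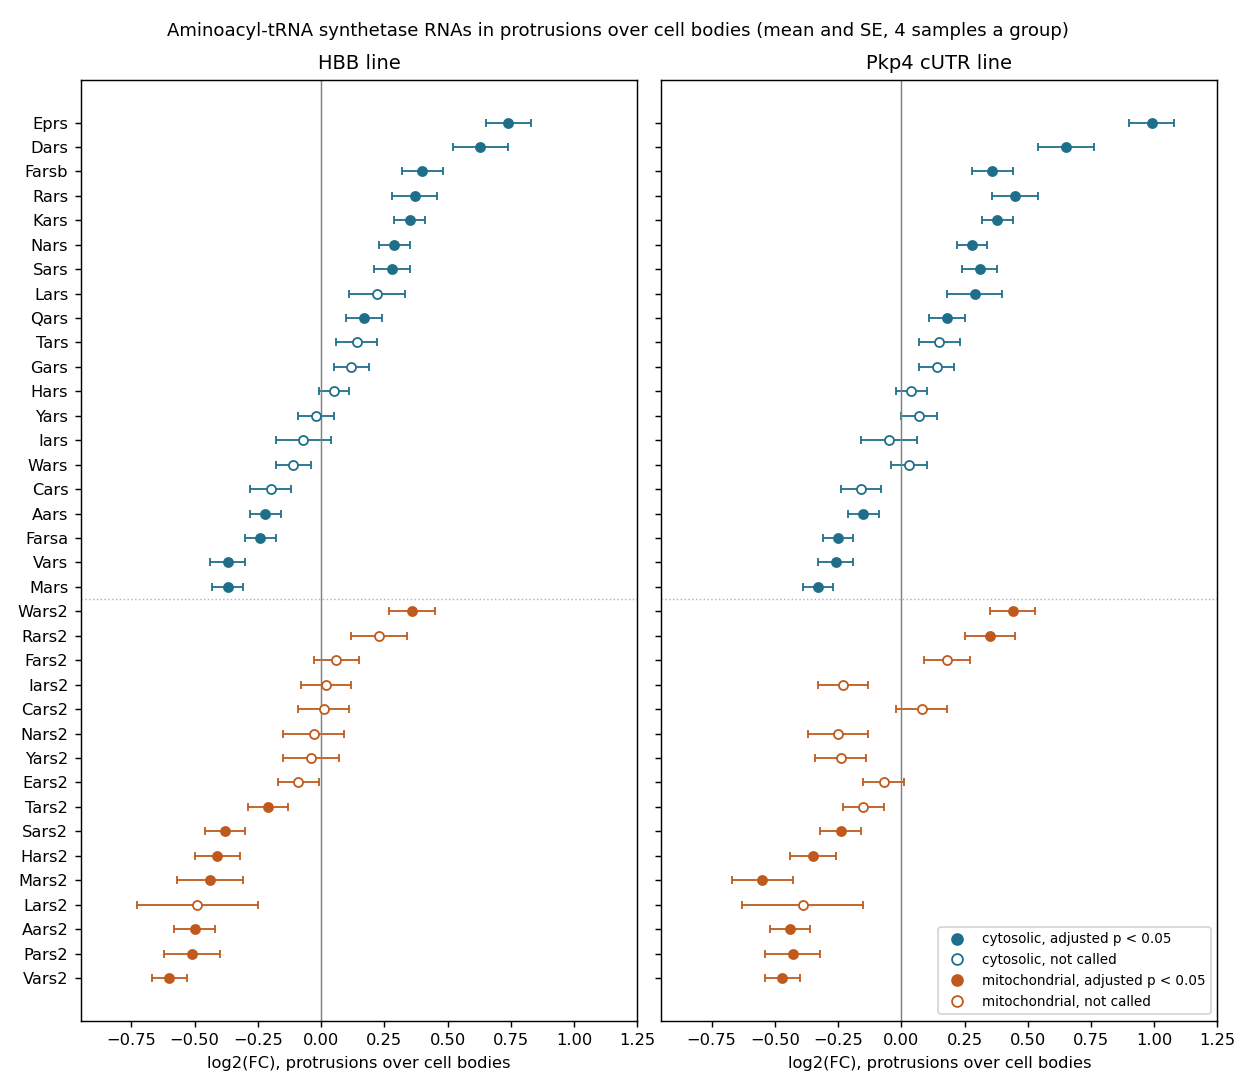
Log2(FC) of protrusions over cell bodies (horizontal axis) for the 36 members (rows, cytosolic above the dotted line and mitochondrial below it) in the HBB line (left) and the Pkp4 cUTR line (right). Points are fitted differences between 4 samples and 4 samples, bars their SE, and filled points passed an adjusted p of 0.05; Eprs lies farthest to the right in both lines, at 0.74 and 0.99.

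These directions depend on how the libraries are scaled. Relative to the plain read total, the library sizes used by the authors were scaled by 0.8277 to 0.9737 in protrusions and by 1.0725 to 1.1142 in cell bodies. With reads scaled to plain totals only Eprs and Dars among the members were higher, in both lines, while 20 and 21 members were lower. Of all 12900 RNAs, 7554 were then called in HBB cells and 7664 in Pkp4 cUTR cells, in either direction. The median log2(FC) of all RNAs moved to −0.232 in HBB cells and −0.254 in Pkp4 cUTR cells. Taken relative to that shift, the cytosolic medians were 0.12 and 0.14 and the mitochondrial ones −0.16 and −0.25, against 0.12, 0.13, −0.16 and −0.25 with the authors' scaling. The directions given here are therefore relative to the typical RNA of the same fraction. Values of single samples are given as log2 CPM in the order of replicates 1 to 4.

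The highest enrichment was that of Eprs, the bifunctional glutamyl-prolyl-tRNA synthetase of the multisynthetase complex, whose gene lies at chr1:185363044-185428360 on the plus strand (GRCm38). Eprs stood at 5.22, 4.98, 4.91 and 4.79 in HBB cell bodies and at 5.68, 5.87, 5.65 and 5.65 in HBB protrusions. In Pkp4 cUTR cells Eprs read 5.21, 5.11, 4.91 and 5.14 in cell bodies and 5.97, 6.22, 6.15 and 6.0 in protrusions. Every protrusion sample was above every cell-body sample in both lines, and the log2(FC) was 0.74 (SE 0.09, adjusted p = 3.12e-06, 1.66-fold) in HBB cells and 0.99 (SE 0.09, adjusted p = 1.52e-07, 1.99-fold) in Pkp4 cUTR cells. Eprs remained called without any one of the 16 samples and with plain totals.

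Dars, the aspartyl-tRNA synthetase of the same complex, came next. Its levels were 3.60, 3.51, 3.35 and 3.48 in HBB CB and 4.01, 4.19, 4.03 and 4.22 in HBB Ps. The Pkp4 cUTR levels were 3.62, 3.66, 3.32 and 3.88 in CB and 4.10, 4.23, 4.30 and 4.44 in Ps, so that the fractions did not overlap in either line. The log2(FC) of Dars was 0.63 (SE 0.11, adjusted p = 7.7e-05) and 0.65 (SE 0.11, adjusted p = 5.41e-05). Dars has the transcript of lowest GC content among the cytosolic members, 41.2%, and with the trend of all RNAs with GC content removed its log2(FC) fell to 0.23 (adjusted p = 0.0285) and 0.20 (adjusted p = 0.052).

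Rars, which charges arginine, and Kars, the lysyl-tRNA synthetase that serves cytosol and mitochondria from 1 gene, are also in the complex. Rars read 5.48, 5.33, 5.46 and 5.30 in HBB CB against 5.67, 5.94, 5.70 and 5.76 in HBB Ps, and 5.57, 5.47, 5.25 and 5.65 in Pkp4 cUTR CB against 5.83, 5.98, 6.08 and 5.83 in Ps. For Kars the values were 7.58, 7.64, 7.62 and 7.69 in HBB CB, 7.99, 7.90, 8.11 and 7.95 in HBB Ps, 7.73, 7.72, 7.72 and 7.77 in Pkp4 cUTR CB and 8.08, 8.05, 8.27 and 8.05 in Pkp4 cUTR Ps. For both genes all protrusion samples were above all cell-body samples of their line. The log2(FC) was 0.37 (SE 0.09, adjusted p = 0.00159) and 0.45 (SE 0.09, adjusted p = 0.000367) for Rars and 0.35 (SE 0.06, adjusted p = 0.000141) and 0.38 (SE 0.06, adjusted p = 8.3e-05) for Kars.

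Mars, the methionyl-tRNA synthetase, was the member of the complex that fell. Mars stood at 5.69, 5.76, 5.73 and 5.82 in HBB CB and at 5.49, 5.34, 5.33 and 5.36 in HBB Ps. The Pkp4 cUTR values were 5.79, 5.87, 5.83 and 5.78 in CB and 5.57, 5.49, 5.51 and 5.37 in Ps. No protrusion sample reached the cell-body samples in either line, with a log2(FC) of −0.37 (SE 0.06, adjusted p = 7e-05) and −0.33 (SE 0.06, adjusted p = 0.000215). The exons of Mars overlap those of Ddit3 on the opposite strand by 68 bases, and how the counting treated strand is not given in the sources used here.

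The 3 other synthetases of the complex moved less. Qars, for glutamine, had a log2(FC) of 0.17 (adjusted p = 0.0345) and 0.18 (adjusted p = 0.0297), and these calls were lost without 5 and 4 of the 16 samples, each taken alone, and turned to −0.07 and −0.09 with plain totals. Lars, for leucine, had 0.22 (adjusted p = 0.0875) in HBB cells and rose in Pkp4 cUTR cells by 0.29 (adjusted p = 0.0234), a call lost when replicate 3 of CB, or replicate 2 or 3 of Ps, was left out. Iars, for isoleucine, had −0.07 and −0.05 and passed in neither line, and 7.15% of its sequence in stretches of 50 bases is shared with the gene Gm4849. In all, 5 of the 8 complex synthetases rose and 1 fell in HBB cells (median log2(FC) 0.29), and 6 rose and 1 fell in Pkp4 cUTR cells (0.34), beside 28.3% and 28.2% of all RNAs that rose. Of the scaffold genes, Aimp1 rose in both lines (0.94 and 0.91), Eef1e1 rose in HBB cells (0.51, adjusted p = 3.83e-05) with 0.11 (adjusted p = 0.266) in Pkp4 cUTR cells, and Aimp2 had −0.01 and 0.04.

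Among the 12 cytosolic members outside the complex 3 rose and 3 fell in each line, with medians of 0.01 and 0.06, shares near those over all RNAs (28.3% higher and 28.9% lower in HBB cells, 28.2% and 28.5% in Pkp4 cUTR cells). The cytosolic phenylalanyl-tRNA synthetase is built from an α subunit, encoded by Farsa (chr8:84856989-84869257, plus strand), and a β subunit, encoded by Farsb (chr1:78417975-78488897, minus strand), and the RNAs of its subunits went opposite ways. Farsb read 4.70, 4.79, 4.67 and 4.64 in HBB CB, 5.10, 5.17, 5.15 and 5.00 in HBB Ps, 4.89, 4.75, 4.65 and 4.99 in Pkp4 cUTR CB and 5.13, 5.17, 5.32 and 5.08 in Pkp4 cUTR Ps. Farsa read 6.61, 6.53, 6.69 and 6.69 in HBB CB, 6.44, 6.30, 6.39 and 6.43 in HBB Ps, 6.56, 6.56, 6.61 and 6.44 in Pkp4 cUTR CB and 6.36, 6.27, 6.22 and 6.33 in Pkp4 cUTR Ps. In neither line did the fractions overlap for either subunit. Farsb was higher in protrusions by 0.40 (SE 0.08, adjusted p = 0.000282) and 0.36 (SE 0.08, adjusted p = 0.000849), and Farsa was lower, at −0.24 (SE 0.06, adjusted p = 0.00283) and −0.25 (SE 0.06, adjusted p = 0.00267). The transcript of Farsa has 56.6% GC and that of Farsb 46.3%, and with the GC trend removed Farsa had −0.03 (adjusted p = 0.707) and −0.07 (adjusted p = 0.264), no longer called, while Farsb was still called higher in both lines. With plain totals Farsa was still lower in both lines and Farsb was no longer called. The exons of Farsb overlap Sgpp2 on the opposite strand by 248 bases.

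Vars, for valine, and Aars, for alanine, were the other cytosolic members that fell. Vars stood at 8.12, 8.08, 8.23 and 8.25 in HBB CB, 7.79, 7.69, 7.86 and 7.87 in HBB Ps, 8.21, 8.29, 8.37 and 8.16 in Pkp4 cUTR CB and 7.93, 7.95, 8.09 and 8.02 in Pkp4 cUTR Ps. Aars stood at 8.45, 8.4, 8.57 and 8.47 in HBB CB, 8.29, 8.18, 8.26 and 8.29 in HBB Ps, 8.58, 8.57, 8.63 and 8.44 in Pkp4 cUTR CB and 8.39, 8.36, 8.51 and 8.35 in Pkp4 cUTR Ps. The fractions of Vars were apart in both lines, those of Aars in HBB cells only. The log2(FC) of Vars was −0.37 (SE 0.07, adjusted p = 0.000171) and −0.26 (SE 0.07, adjusted p = 0.00348), and that of Aars −0.22 (SE 0.06, adjusted p = 0.00776) and −0.15 (SE 0.06, adjusted p = 0.0489). The call of Aars in Pkp4 cUTR cells was kept in 3 of the 16 fits that each left out a sample, and with the GC trend removed its log2(FC) there was 0.02. Aars overlaps Exosc6 on the same strand by 1326 bases and shares 13.51% of its sequence with it, so its reads are uncertain.

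Sars, for serine, rose by 0.28 and 0.31 and Nars, for asparagine, by 0.29 and 0.28, all with adjusted p of 0.00335 or less and fractions that did not overlap. Gars, the glycyl-tRNA synthetase used in both compartments, read 7.98, 7.95, 7.93 and 7.97 in HBB CB, 8.13, 8.07, 8.11 and 7.99 in HBB Ps, 8.25, 8.16, 7.96 and 8.14 in Pkp4 cUTR CB and 8.26, 8.35, 8.38 and 8.11 in Pkp4 cUTR Ps. Its fractions were apart in HBB cells and overlapped in Pkp4 cUTR cells, and its log2(FC) of 0.12 (SE 0.07, adjusted p = 0.17) and 0.14 (SE 0.07, adjusted p = 0.0922) did not pass. The remaining members passed in neither line: Cars (cysteine) had −0.20 and −0.16, Hars (histidine) 0.05 and 0.04, Tars (threonine) 0.14 and 0.15, Wars (tryptophan) −0.11 and 0.03, and Yars (tyrosine) −0.02 and 0.07.

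**Figure D2:**
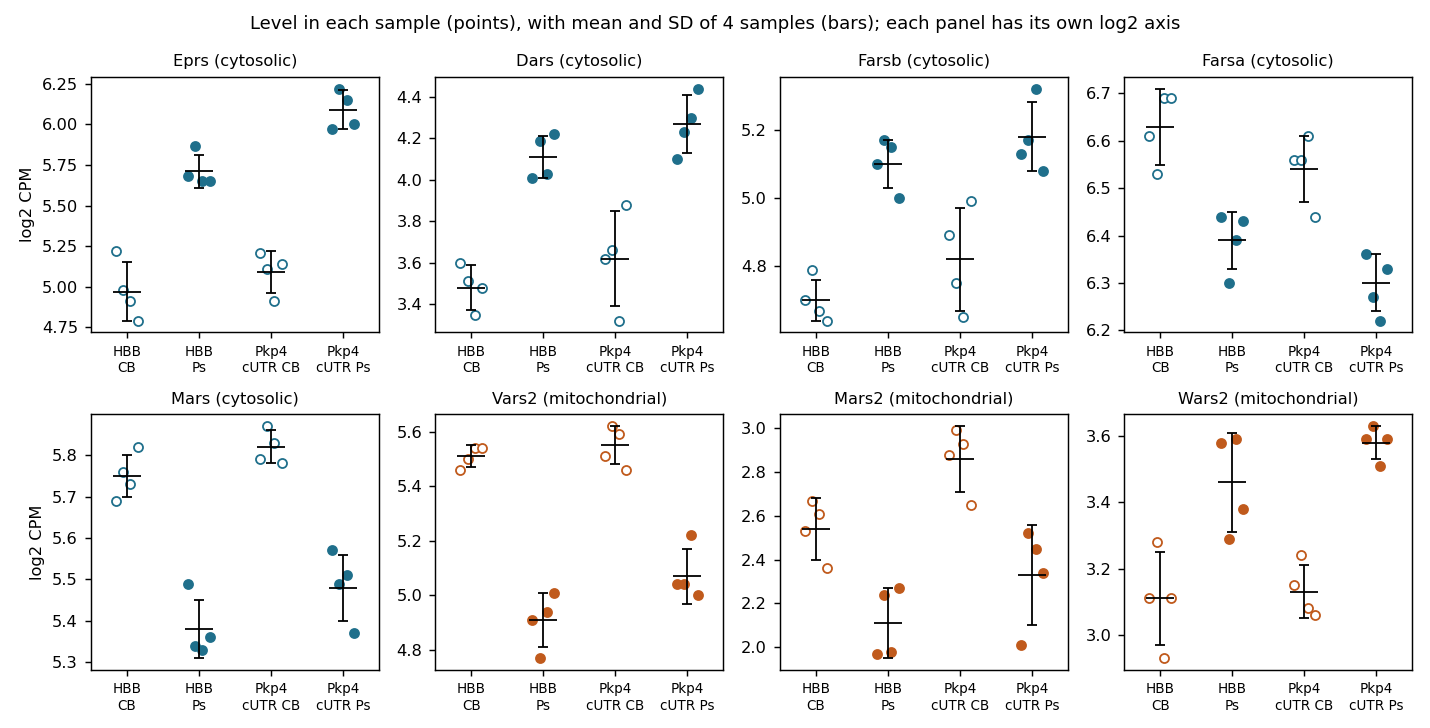
Log2 CPM (vertical axes, a separate range in each panel) of 8 members in each of the 16 samples, by line and fraction; points are samples, horizontal marks the mean and bars the SD of 4 samples. Farsb and Farsa, the subunits of one enzyme, lie in opposite order, and Wars2 is the mitochondrial member shown with protrusions above cell bodies in both lines.

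Of the 16 mitochondrial members 7 fell in HBB protrusions, 6 in Pkp4 cUTR protrusions, and 8 were not called in each line. The valyl enzyme Vars2 (chr17:35655634-35667592, minus strand) had the lowest log2(FC) of them in HBB cells. Vars2 read 5.46, 5.50, 5.54 and 5.54 in HBB CB and 4.91, 4.77, 4.94 and 5.01 in HBB Ps. In Pkp4 cUTR cells Vars2 read 5.51, 5.62, 5.59 and 5.46 in CB and 5.04, 5.04, 5.22 and 5.00 in Ps. All protrusion samples were below all cell-body samples, with a log2(FC) of −0.60 (SE 0.07, adjusted p = 1.11e-06) and −0.47 (SE 0.07, adjusted p = 1.77e-05). The exons of Vars2 overlap the antisense gene Gm20483 by 465 bases.

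Pars2, the prolyl enzyme, Aars2, the alanyl enzyme, and Mars2, the methionyl enzyme, followed the same order. Pars2 stood at 3.41, 3.58, 3.41 and 3.75 in HBB CB, 2.87, 3.21, 3.19 and 2.80 in HBB Ps, 3.66, 3.69, 3.58 and 3.65 in Pkp4 cUTR CB and 3.08, 3.5, 3.10 and 3.19 in Pkp4 cUTR Ps. Aars2 stood at 5.52, 5.48, 5.66 and 5.50 in HBB CB, 5.14, 4.94, 5.02 and 5.06 in HBB Ps, 5.43, 5.43, 5.63 and 5.39 in Pkp4 cUTR CB and 5.04, 5.06, 5.17 and 4.86 in Pkp4 cUTR Ps. Mars2 stood at 2.53, 2.67, 2.61 and 2.36 in HBB CB, 1.97, 2.24, 1.98 and 2.27 in HBB Ps, 2.88, 2.99, 2.93 and 2.65 in Pkp4 cUTR CB and 2.01, 2.52, 2.45 and 2.34 in Pkp4 cUTR Ps. None of the 3 had fractions that overlapped in either line. The log2(FC) of Pars2 was −0.51 (adjusted p = 0.000918) and −0.43 (adjusted p = 0.00323), that of Aars2 −0.50 (adjusted p = 2.8e-05) and −0.44 (adjusted p = 0.000133), and that of Mars2 −0.44 (adjusted p = 0.00787) and −0.55 (adjusted p = 0.00107). Hars2 (−0.41 and −0.35) and Sars2 (−0.38 and −0.24), the histidyl and seryl enzymes, also fell in both lines, and Tars2, the threonyl enzyme, fell in HBB cells (−0.21, adjusted p = 0.0287) with −0.15 (adjusted p = 0.106) in Pkp4 cUTR cells. The exons of Hars2 overlap those of Hars on the opposite strand by 195 bases. Leaving out 1 sample ended the call of Tars2 in 3 of 16 fits and that of Sars2 in Pkp4 cUTR cells in 3 of 16.

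Wars2, the tryptophanyl enzyme (chr3:99141068-99239186, plus strand), and Rars2, the arginyl enzyme, had positive values, and Wars2 passed in both lines and Rars2 in Pkp4 cUTR cells. Wars2 read 3.11, 3.28, 2.93 and 3.11 in HBB CB, 3.58, 3.29, 3.59 and 3.38 in HBB Ps, 3.15, 3.24, 3.08 and 3.06 in Pkp4 cUTR CB and 3.59, 3.63, 3.51 and 3.59 in Pkp4 cUTR Ps. Rars2 read 2.36, 2.49, 2.21 and 2.15 in HBB CB, 2.53, 2.52, 2.38 and 2.72 in HBB Ps, 2.55, 2.43, 2.38 and 2.35 in Pkp4 cUTR CB and 2.73, 2.82, 2.86 and 2.72 in Pkp4 cUTR Ps. Wars2 did not overlap between fractions in either line, although replicate 2 of HBB Ps was just above replicate 2 of HBB CB, and Rars2 overlapped in HBB cells only. Wars2 was higher in protrusions by 0.36 (SE 0.09, adjusted p = 0.00326) and 0.44 (SE 0.09, adjusted p = 0.000579), while Rars2 had 0.23 (SE 0.11, adjusted p = 0.0684), not called, in HBB cells and rose by 0.35 (SE 0.10, adjusted p = 0.00731) in Pkp4 cUTR cells. Neither was called with plain totals, and with the GC trend removed Rars2 in Pkp4 cUTR cells had 0.10 (adjusted p = 0.358) and was no longer called.

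The other mitochondrial members passed in neither line. The glutamyl enzyme Ears2 had −0.09 and −0.07, the phenylalanyl enzyme Fars2 0.06 and 0.18, the cysteinyl enzyme Cars2 0.01 and 0.08, the isoleucyl enzyme Iars2 0.02 and −0.23, the asparaginyl enzyme Nars2 −0.03 and −0.25, and the tyrosyl enzyme Yars2 −0.04 and −0.24. Lars2, the leucyl enzyme, had a log2(FC) of −0.49 (SE 0.24, adjusted p = 0.0837) and −0.39 (SE 0.24, adjusted p = 0.168), of the size of the called members but with the widest spread of all members, from 8.02 to 9.42 among the 4 Pkp4 cUTR protrusion samples. Iars2 overlaps Rab3gap2, Cars2 overlaps Naxd, Fars2 overlaps Nrn1 and Ears2 overlaps Ubfd1 on the opposite strand, by 2034, 422, 501 and 89 bases of exon.

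Members were paired where their symbols differ only by the final digit 2, which gave pairs for 13 amino acids. In 10 of these pairs in HBB cells and 11 in Pkp4 cUTR cells the cytosolic enzyme had the higher log2(FC). The median difference within pairs was 0.24 and 0.28. The exceptions were the cysteine and tryptophan pairs in both lines and the isoleucine pair in HBB cells. Among these pairs the widest gap in favour of the cytosolic enzyme was that of Lars over Lars2 (0.71 and 0.68), where Lars2 is the noisiest member. Sars over Sars2 followed (0.66 and 0.54). The widest gap the other way was Wars2 over Wars (−0.47 and −0.42 for Wars less Wars2). Phenylalanine was left out by the symbol rule, and there Fars2 (0.06 and 0.18) lay between Farsa (−0.24 and −0.25) and Farsb (0.40 and 0.36). Glutamate and proline, both served by Eprs in the cytosol, were left out as well. For each sample the cytosolic less the mitochondrial median was also taken over the members' deviations from their means in that line, with no pairing of Ps with CB. It was 0.13, 0.07, 0.15 and 0.14 in HBB Ps (mean 0.12 ± 0.03, SD, n = 4) and −0.12, −0.14, −0.09 and −0.26 in HBB CB (−0.15 ± 0.07, SD, n = 4). In Pkp4 cUTR cells it was 0.20, 0.15, 0.19 and 0.20 in Ps (0.18 ± 0.02, SD, n = 4) and −0.10, −0.14, −0.26 and −0.16 in CB (−0.16 ± 0.07, SD, n = 4). The fractions did not overlap in either line. Because each mean spans both fractions, Ps and CB tend to opposite signs by construction. Only the gap between them is read, and a negative value is not a comparison of levels. No test was made of the difference between the classes, which is a description of these members.

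**Figure D3:**
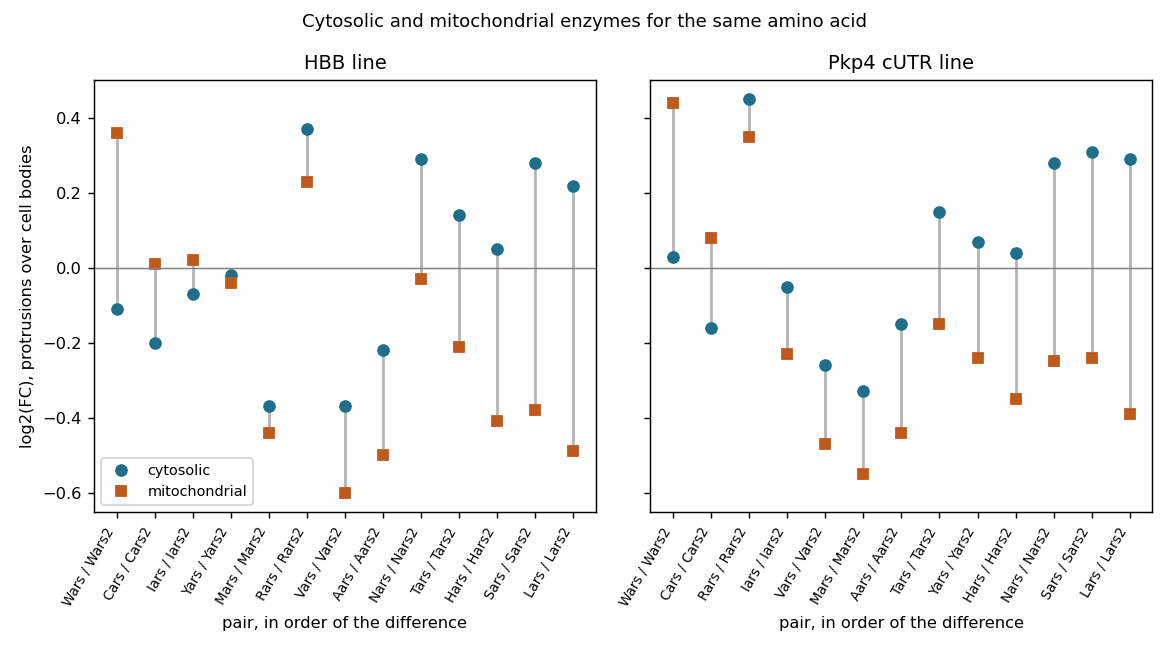
Log2(FC) of protrusions over cell bodies (vertical axis) for the 13 pairs of a cytosolic (circles) and a mitochondrial (squares) enzyme for the same amino acid, ordered by their difference, in the HBB line (left) and the Pkp4 cUTR line (right). The circle is above the square in 10 pairs on the left and 11 on the right.

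The synthetases fall into 2 classes by the fold of their catalytic domain, class I and class II. By this division the 10 class I cytosolic members had medians of −0.04 and 0.05 and the 10 class II cytosolic members 0.21 and 0.21. The 9 class I mitochondrial members had −0.04 and −0.23, with 1 higher and 2 lower in HBB cells and 2 higher and 2 lower in Pkp4 cUTR cells. The 7 class II mitochondrial members (Aars2, Fars2, Hars2, Nars2, Pars2, Sars2 and Tars2) had −0.38 and −0.25, with 5 and 4 lower and 0 higher, beside 28.9% and 28.5% of all RNAs that were lower.

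The cytosolic members were also the more abundant per length. Per kb of the longest annotated transcript, their median in HBB cell bodies was 30.2 CPM, from 5.15 (Dars) to 123 (Sars), and that of the mitochondrial members was 6.13 CPM, from 0.517 (Mars2) to 148 (Lars2). In HBB protrusions the medians were 32.6 and 5.93 CPM per kb. The cytosolic enzyme was the higher in 12 of the 13 pairs in every group, and Lars2 over Lars was the exception. In HBB cell bodies the order at the top was Lars2 (148 ± 39.6), Sars (123 ± 9.24), Gars (104 ± 1.74), Kars (90.8 ± 2.67) and Qars (90.1 ± 4.16 CPM per kb, SD, n = 4). Lars2 and Sars did not differ beyond their spread, nor did Kars and Qars. Of the sequence of Lars2 in stretches of 50 bases, 0.2% is shared with other genes, Gm15564 among them. Whether all reads given to Lars2 come from its own mRNA was not tested, so its level is uncertain. The transcript used for Mars2 is 11294 bases long in 1 exon, so its value per kb rests on that annotation.

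Summed over the members, the cytosolic RNAs made up 2710 ± 78.6 CPM in HBB CB and 2830 ± 96.7 in HBB Ps, and 2870 ± 43.4 and 3100 ± 138 in Pkp4 cUTR CB and Ps. The mitochondrial RNAs made up 889 ± 159 and 674 ± 82.8 CPM in HBB CB and Ps and 870 ± 133 and 715 ± 184 in Pkp4 cUTR CB and Ps (SD, n = 4), sums in which Lars2 has the largest share.

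**Figure D4:**
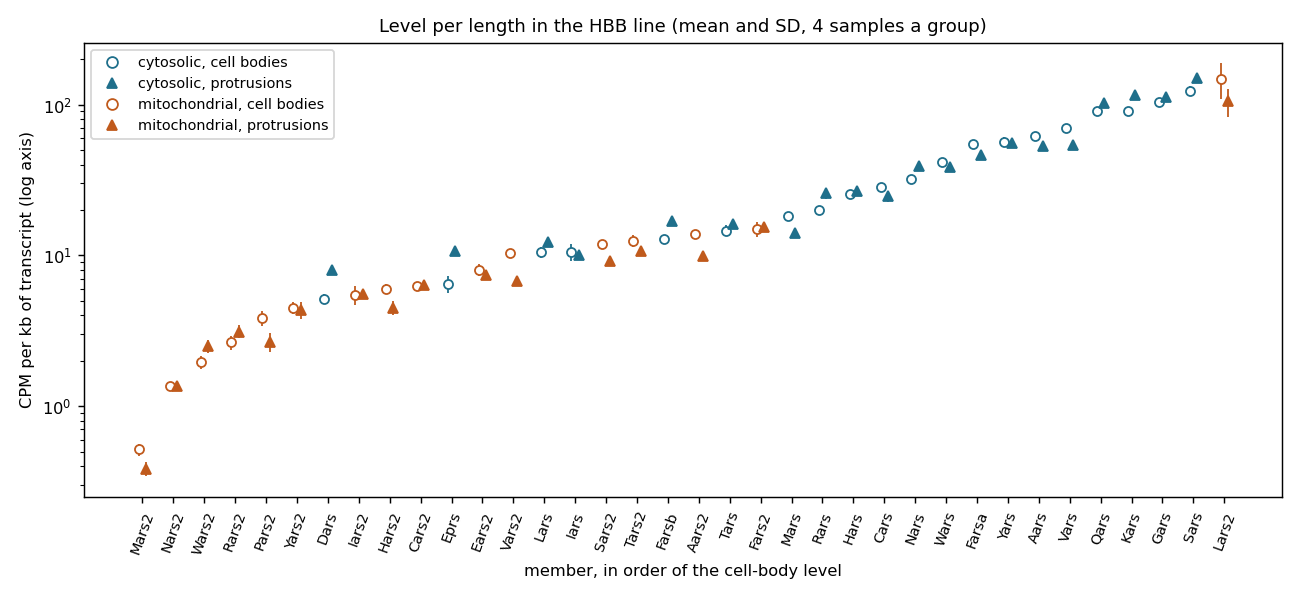
CPM per kb of transcript (vertical log axis) of the 36 members in the HBB line, ordered by their level in cell bodies; circles are cell bodies, triangles protrusions, and bars the SD of 4 samples. Most mitochondrial members lie in the lower part of the order, and Lars2 is at the top with the widest bars.

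Enrichment in protrusions was lower for transcripts of higher GC content, among the members as among all RNAs. Across the 36 members Pearson's r of log2(FC) with transcript GC content was −0.49 in HBB cells and −0.35 in Pkp4 cUTR cells, and across 12744 RNAs with an annotated transcript it was −0.34 in both. These correlations are over genes measured in the same libraries, which are not independent replicates. The members spanned 38.8% (Mars2) to 60.9% GC (Vars), with medians of 50.9% for the cytosolic and 49.7% for the mitochondrial members. RNAs of 40 to 42% GC had a median log2(FC) of 0.43 in HBB cells and those of 58 to 60% one of −0.27.

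When the trend with GC content was removed from each sample, the cytosolic members kept a median of 0.12 and 0.19 and the mitochondrial ones −0.19 and −0.27. There were then 8 higher and 2 lower cytosolic members in HBB cells and 10 and 1 in Pkp4 cUTR cells. Of the mitochondrial members 2 were higher and 6 lower in HBB cells, and 3 and 8 in Pkp4 cUTR cells. Of all 12744 RNAs, 6848 were called in HBB cells and 6805 in Pkp4 cUTR cells, in either direction. Eprs changed little, to 0.66 (adjusted p = 2.81e-06) and 0.94 (adjusted p = 1.43e-07). Mars2, with a low GC content and a low log2(FC), went to −0.98 (adjusted p = 2.31e-05) and −1.18 (adjusted p = 2.73e-06), while Aars, Farsa and Sars2 in both lines and Dars, Lars (0.23, adjusted p = 0.0613), Vars and Rars2 in Pkp4 cUTR cells were no longer called. Fars2 was then called higher in both lines (0.28 and 0.36), and in Pkp4 cUTR cells Gars, Wars, Yars and Cars2 were called higher and Iars2, Nars2 and Yars2 lower. With the trend with transcript length removed in its place, 11 cytosolic members were higher and 3 lower in HBB cells and 11 and 2 in Pkp4 cUTR cells. Of the mitochondrial members 1 was higher and 6 lower in HBB cells, and 2 and 6 in Pkp4 cUTR cells. By that setting 6919 of the 12744 RNAs were called in HBB cells and 6878 in Pkp4 cUTR cells, in either direction. These trends were fitted after the data had been seen, and whether they arise in the cells or in the libraries was not tested.

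**Figure D5:**
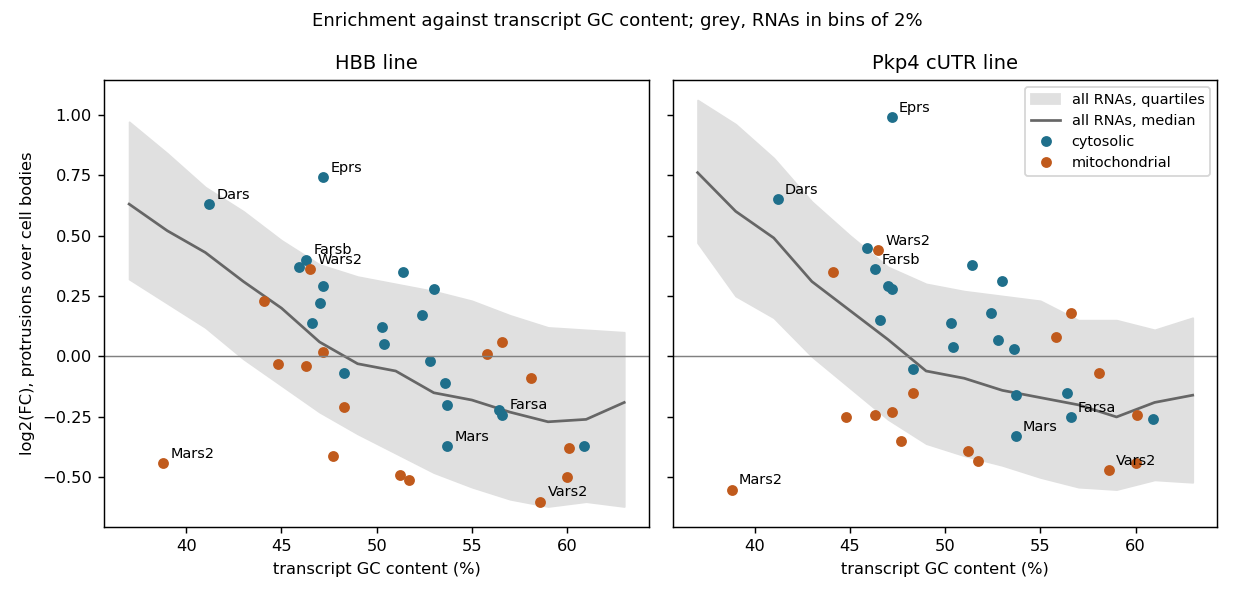
Log2(FC) of protrusions over cell bodies (vertical axis) against transcript GC content in percent (horizontal axis) for the cytosolic and mitochondrial members in the HBB line (left) and the Pkp4 cUTR line (right). The grey line and band are the median and quartiles of all RNAs in bins of 2% GC; Eprs lies above the band in both panels and Mars2 below it.

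The genes of neighbouring steps were taken as lists. Of 9 elongation factor genes, 5 rose in HBB protrusions and 6 in Pkp4 cUTR protrusions and 0 fell, beside 28.3% and 28.2% of all RNAs that rose. Those that rose in both were of the cytosol, with log2(FC) of 0.86 and 0.75 for Eef1a1, which delivers the charged transfer RNA to the ribosome, and 1.03 and 0.96 for Eef1b2, which recharges it with GTP. The mitochondrial factors had values near 0, from −0.02 to 0.13 in HBB cells for Tufm, Tsfm, Gfm1 and Gfm2, and Tufm rose in Pkp4 cUTR cells by 0.20 (adjusted p = 0.0333). Of 15 other aminoacylation genes in the table, 6 rose and 0 fell in HBB cells, and 6 rose and 2 fell in Pkp4 cUTR cells, beside the same background. Among them were Trnt1, which adds the CCA end to transfer RNAs (0.81 and 1.03), and Gatc (0.58 and 0.50), a subunit of the enzyme that makes mitochondrial glutaminyl-tRNA.

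The Pkp4 cUTR line was compared with the HBB line to ask whether the competing 3′UTR changed the place or the level of these RNAs. For the difference of enrichment, log2(Diff FC), 0.0% of all RNAs passed an adjusted p of 0.05, and 0 of 36 members did. At an unadjusted p under 0.05 there were 300 RNAs (2.33%) and 0 members. Eprs came closest, with a log2(Diff FC) of 0.26 (SE 0.13, 95% interval −0.02 to 0.53, limma adjusted p = 1.0). Of the members 28 had a positive log2(Diff FC), which is 77.8% against 51.6% of all RNAs. The intervals were 0.35 to 1.41 wide, so that smaller differences could not be resolved. By its own cutoffs on log2(Diff FC) and p, the study did report RNAs less enriched in protrusions of Pkp4 cUTR cells. It also reported, by in situ hybridization, that Ddr2 and Kank2 RNAs were less peripheral in cells with this construct. In the sequencing examined here, log2(Diff FC) was 0.04 (SE 0.14) for Ddr2 and −0.32 (SE 0.18) for Kank2, and neither passed.

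Between the cell bodies of the lines 3.42% of all RNAs were higher and 5.55% lower in Pkp4 cUTR cells, and 0 members were called. At an unadjusted p under 0.05 by limma there were 5 members (Gars, Lars, Nars, Mars2 and Yars2), or 2950 of all RNAs (22.9%). Mars2 had the smallest p, with a log2(FC) of Pkp4 cUTR over HBB of 0.32 (SE 0.11, adjusted p = 0.0878). Its values, given above, were 2.36 to 2.67 in HBB CB and 2.65 to 2.99 in Pkp4 cUTR CB, so that the lines overlapped in 1 sample of each. The differences were small but mostly of one sign: 29 of the 36 members (80.6%) were positive against 50.6% of all RNAs, with a median of 0.09 against 0.003.

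Between the protrusions of the lines 2.89% of all RNAs were higher and 4.26% lower in Pkp4 cUTR cells, and 1 member, Eprs, was called. Eprs was higher in Pkp4 cUTR protrusions by 0.37 (SE 0.09, adjusted p = 0.0175), and its 4 samples there, from 5.97 to 6.22, were all above the 4 of HBB protrusions, from 5.65 to 5.87. The call was lost without replicate 1, 3 or 4 of HBB Ps or replicate 2 of Pkp4 cUTR Ps (log2(FC) of 0.33 to 0.42 without each sample in turn, highest adjusted p 0.0675) and with plain totals. With the replicate number as a block (samples of the 2 lines that bear the same number shared part of their deviation), Eprs was called (adjusted p = 0.0112) and Vars as well (0.20, SE 0.06, adjusted p = 0.0454). Without the block 10 members had an unadjusted p under 0.05, against 22.0% of all RNAs, and 30 of 36 (83.3%) were positive against 52.7% of all RNAs, with a median of 0.12 against 0.015. These comparisons use the same samples as the enrichments and as each other, so their signs are not independent. They also place one transduced line beside another, and the construct cannot be told apart from other differences between the lines.

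The genes of the amino acid response were examined beside these levels. Of 29 in the table, 6 were higher and 1 lower in the cell bodies of Pkp4 cUTR cells, beside 3.42% and 5.55% of all RNAs. Those higher were Psat1 (0.35), Phgdh (0.32) and Pycr1 (0.33), enzymes of serine and proline synthesis, Cth (0.58), of cysteine synthesis, Trib3 (0.42), a pseudokinase, and Stc2 (0.80), a secreted glycoprotein. Cbs, of the same path as Cth, was lower (−0.77), and Atf4 itself had 0.06 (adjusted p = 0.715). In protrusions 3 of the 29 were higher, Trib3, Psat1 and Stc2, beside 2.89% of all RNAs. Of the 9 sensors and kinases of the response, 0 were called between the lines in either fraction. From cell bodies to protrusions 6 of the 29 rose and 10 fell in HBB cells and 6 rose and 9 fell in Pkp4 cUTR cells, near the shares of all RNAs (28.3% and 28.9%, 28.2% and 28.5%). Those that fell in both lines included the amino acid transporters Slc3a2 (−0.83 and −0.82) and Slc7a5 (−0.63 and −0.64). Of the 9 sensors 2 rose and 4 fell in each line, beside the same shares of all RNAs, and the kinase Eif2ak3 had −1.14 and −1.17.

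The promoters of the members were searched for TGATGNAA, the core of the composite site that Atf4 is known to bind with C/EBP factors, on both strands of RefSeq windows of 300 bases around the start of each gene, most of them upstream (GRCm38.p6). Windows were found for 26 of the 36 members, 12 cytosolic and 14 mitochondrial, and not for Cars, Hars, Lars, Mars, Nars, Rars, Vars, Wars, Hars2 and Pars2. The motif was present for 5 of the 12 cytosolic genes (41.7%), 0 of the 14 mitochondrial genes and 4.51% of 27025 genes. A stretch that holds it is shown for each gene because, of the members searched, only cytosolic ones held it. Each is written 5′ to 3′ along the strand of the gene, and the capitals mark the motif or, where it lies on the other strand, its complement read along the gene:
Aars, chr8:111033840-111033869, plus strand: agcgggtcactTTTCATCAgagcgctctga
Gars, chr6:55037960-55037989, plus strand: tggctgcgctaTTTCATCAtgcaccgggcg
Iars, chr13:49682126-49682155, plus strand: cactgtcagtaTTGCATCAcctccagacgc
Tars, chr15:11399655-11399684, minus strand: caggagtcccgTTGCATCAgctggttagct
Yars, chr4:129189895-129189924, plus strand: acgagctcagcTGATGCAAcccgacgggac
In the cell bodies of Pkp4 cUTR over HBB cells these 5 genes had log2(FC) of 0.08 (Aars), 0.17 (Gars), 0.00 (Iars), 0.10 (Tars) and 0.01 (Yars), and none was called. A match of these letters is a description of the window and not evidence of binding.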

How the data were processed

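RNA was measured by RNA-Seq of stranded libraries from 16 samples, 4 for each line and fraction. The authors aligned reads to mm10 with STAR 2.4.2a, counted them per gene with Rsubread and deposited log2 CPM values from limma-voom (limma 3.26.1), per the labels and the study's methods. A cutoff of log2 CPM 0.5 in at least 1 sample is stated there, yet 1418 of the 12900 deposited RNAs do not exceed it in any sample. How library sizes were scaled is not given in the sources used here. The steps of 1 read between low values gave back the reads (100% of values within 0.01 of a whole number). These reads, with the authors' scaled library sizes, entered voom and limma 3.58.1 (R 4.3.3) with 1 mean per group and contrasts. Benjamini-Hochberg adjustment ran over all 12900 RNAs, and the SE and adjusted p are limma's. The fit was tested on simulated reads.

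Values in every sample are given for the 3 called members of largest change per class and comparison, called members against their class median, Gars and Kars, and, where no member was called, the one of smallest p. The members and lists were chosen with earlier results of these data known. Same-numbered samples deviated together between the lines (mean correlation 0.483 in cell bodies and 0.316 in protrusions, lowest 0.331 and 0.196). From cell bodies to protrusions they did so weakly in HBB (mean 0.178, from 0.046 to 0.389) and not in Pkp4 cUTR (mean −0.161, from −0.362 to 0.002). The numbers come from the labels, which do not say what was separate between replicates, so p-values measure the spread between these samples. Positions, transcript length and GC content come from GENCODE vM21 (GRCm38), in which 12744 RNAs (98.8%) were matched. Alternatives were other weights, scalings and filters, the replicate block, leaving out samples and removing trends with GC content or length. Searches of the members' proteins were not made here.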

Additional observations from a re-analysis of the deposited data

Results flagged for a closer look

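With 4 samples in each of 4 groups, 144 groups of values were examined for 1 sample that stands apart from the other 3 by Dixon's criterion at 95%, and 9 did. Chance alone flags about 1 in 20 groups. Among the cytosolic members Eprs was high in HBB Ps replicate 2 (log2 CPM 5.87, next 5.68), Hars low in Pkp4 cUTR CB replicate 2 (5.59, next 5.66), Iars low in HBB CB replicate 4 (5.25, next 5.61) and Kars high in Pkp4 cUTR Ps replicate 3 (8.27, next 8.08). Among the mitochondrial members Aars2 was high in Pkp4 cUTR CB replicate 3 (5.63, next 5.43), Hars2 high in Pkp4 cUTR CB replicate 1 (4.43, next 4.27), Iars2 low in Pkp4 cUTR CB replicate 4 (4.97, next 5.12), Nars2 low in Pkp4 cUTR CB replicate 1 (2.34, next 2.64) and Yars2 low in HBB Ps replicate 4 (3.29, next 3.68). The enrichment calls of Eprs, Kars, Aars2 and Hars2 were kept in both lines when each of the 16 samples was left out in turn.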

How the results depend on the processing

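For protrusions over cell bodies, the counts of called members over both classes moved by more than 1.5 times with plain totals (2 higher and 20 lower members in HBB cells, 2 and 21 in Pkp4 cUTR cells, with Qars turning to −0.07 and −0.09) and the call at a fold above 2 (0 and 0 members in each line). With the GC trend removed, an alternative added after seeing the data, Aars in Pkp4 cUTR cells turned to 0.02, and 2 members were higher between the cell bodies of the lines and 4 between the protrusions. With the length trend removed, these were 1 and 1. Of 12744 RNAs, 1201 and 1082 were called there in either direction with the GC trend removed. With the length trend removed 1544 and 1323 were. Within the classes, the 4 cytosolic members that were lower became 2 in HBB cells and 1 in Pkp4 cUTR cells with the GC trend removed and 2 in Pkp4 cUTR cells with the length trend removed. The 1 mitochondrial member higher in HBB cells became 2 with the GC trend removed, with no precision weights, or without HBB CB replicate 2 or HBB Ps replicate 3. Plain totals moved every class count (cytosolic 2 higher and 9 lower in both lines, mitochondrial 0 higher and 11 or 12 lower). The cytosolic less the mitochondrial median moved by more than the unpaired spread between samples under 1 alternative, to 0.46 in Pkp4 cUTR cells with the GC trend removed, from 0.38, and otherwise lay at 0.22 to 0.31 in HBB cells. Between the cell bodies of the lines 5 members were higher at an unadjusted p. Between the protrusions, where 1 was called, 2 were called with limma-trend, quantile normalization, log2(CPM + 1) or without replicate 4 of both cell-body groups, 0 with plain totals or at a fold above 2, 10 at an unadjusted p, and 0 to 3 when 1 sample was left out. With the replicate block 2 were called there, and all RNAs called rose from 923 to 1333. For protrusions over cell bodies, same-numbered samples deviated together weakly in HBB cells and not in Pkp4 cUTR cells. The block there gave 8 higher and 11 lower members in HBB cells and 10 and 10 in Pkp4 cUTR cells. Where not named above, the cause of a change was not tested. At 4 samples a group, differences near 0.2 on the log2 scale lie close to the limit of what passed.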
